A study of Sus scrofa with 12 samples.

Results

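The genes described here are immediate early and short-lived regulators: transcription factors, their repressors and mRNA-decay factors whose transcripts are made quickly and lost quickly. From a list of 37 such genes, those whose symbol is listed in the deposited table of m6A peaks were taken, which gave 31 of 11422 genes with a peak. JUN, JUND, SOX4 and BTG2 had no entry under their symbol and were not analysed here. SNAI2 was listed in the gene expression table without a peak, and IER2 was found through its reference identifier and is kept apart. Of the 31 genes, JUNB and IER3 had only peaks that the table also lists under a neighbouring gene, so 29 had a peak of their own. The genes were put together by function, but with earlier results of these data known.

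Immediate early genes are switched on within minutes of a growth factor, serum or stress signal by kinase cascades that act on factors already present in the cell, without need for new protein. Their mRNAs often carry AU-rich elements in the 3' UTR, which recruit decay factors, and many carry N6-methyladenosine (m6A), the most common internal mark of mRNA, which lies mostly near stop codons and in 3' UTRs and is read by proteins such as YTHDF2 that speed decay. In intestinal epithelium these regulators take part in proliferation, wound repair and the response to microbial products.

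The mark was mapped by MeRIP-seq, which sequences RNA pulled down with an m6A antibody, here in pieces of about 100 nt, and compares it with RNA that was not selected. The cells were IPEC-J2, an established epithelial line from pig small intestine with the genotype WT, grown in DMEM/F12 with serum, penicillin and streptomycin. They were exposed for 24 h to 0 µM (CON) or 25 µM (OAA) of OAA; the title of the series names the bacterial product 2-oxindole-3-acetic acid and, among others, YTHDF2. Each treatment had 3 numbered replicates, and each number has both an IP and an input library by its title, giving 12 libraries in 4 groups under 1 batch label. The labels do not state that replicates were separate cultures, so p-values describe the spread of these samples alone, and that spread may be technical.

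Peak reads came to 16.5 to 23.0 M per library titled input and 3.71 to 4.61 M per library titled IP, and titles and library codes disagree on which of them holds the antibody part. The groups follow the titles. The peak ratio used here divides labelled input by labelled IP (log2), as the authors' deposited table does, and its sign as a measure of antibody binding turns if the titles hold. In that table every one of the 73 member peaks had more counts in the libraries labelled input, as did 98.4% of all peaks. The 6 FPKM columns match, by their codes, libraries titled IP, and their read depth is unknown. Epithelial markers fitted the line: 7 of 7 in the table reached 1 FPKM, with EPCAM at 202 ± 3.65 in CON (SD, n = 3). Of the enterocyte markers 2 of 5 did, SI at 12.9 ± 0.862 and APOA1 at 4.63 ± 0.142, while VIL1 and FABP2 stayed below. Fibroblast markers did not (0 of 6, with DCN and LUM at 0), and the leukocyte marker PTPRC was at 0, although CD79A stood at 6.71 ± 0.633 and 3 of 3 endothelial markers, CDH5 at 3.85 ± 0.657 among them, reached 1 FPKM.

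The regulator mRNAs were first read in FPKM (fragments per kilobase of transcript, scaled to library size), on which values of different genes can be compared. These come from libraries titled IP, so if the titles hold they rank antibody-selected RNA and not mRNA levels. MYC, the growth-driving bHLH factor, stood highest, at 159, 161 and 162 FPKM in the CON libraries. ZFP36L2, a decay factor of the tristetraprolin family, came next at 108, 109 and 109, and FOSL2, an AP-1 subunit, at 70.9, 70.9 and 70.0. Each of these genes stood clear of its neighbours in all CON libraries. Next in order were CEBPB (58.9 ± 3.55, SD, n = 3), IER5 (57.1 ± 0.983), CEBPD (52.4 ± 2.12), BHLHE40 (42.5 ± 1.53), ZFP36L1 (41.7 ± 1.87), JUNB (40.6 ± 2.73) and ETS1 (36.7 ± 3.08). The CON libraries of CEBPB and IER5 overlapped, as did those of each neighbour from BHLHE40 down to ID1. From ID1 (34.8 ± 1.14) the order ran through ZFP36, ID2, ATF3, FOSL1, BHLHE41, ID3, FOS, HES1 and MAFK (16.9 ± 1.61), most of them within their neighbours' spread. IER3 stood at 11.4 ± 1.97 and EGR1, a zinc finger factor induced by serum, at 9.81 ± 0.708.

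At the low end stood MAFF (5.08 ± 0.731), ETS2 (4.96 ± 0.0687), CSRNP1 (4.53 ± 0.427) and NR4A1, an orphan nuclear receptor (2.42 ± 0.285). SOX9, a factor of crypt progenitors, had 0.799, 1.02 and 0.971 FPKM in CON. FOSB (0.443, 0.150 and 0.527), EGR2 (0.443, 0.118 and 0.205), EGR3 (0.213, 0.202 and 0.225) and the Notch target HEY1 (0.0860, 0.0590 and 0.167) lay below 1 FPKM in every CON library, as did SNAI2 (0.110, 0.0250 and 0.0910). Over these 32 genes, 16 of 31 neighbours in the order overlapped in their CON libraries.

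**Figure D1:**
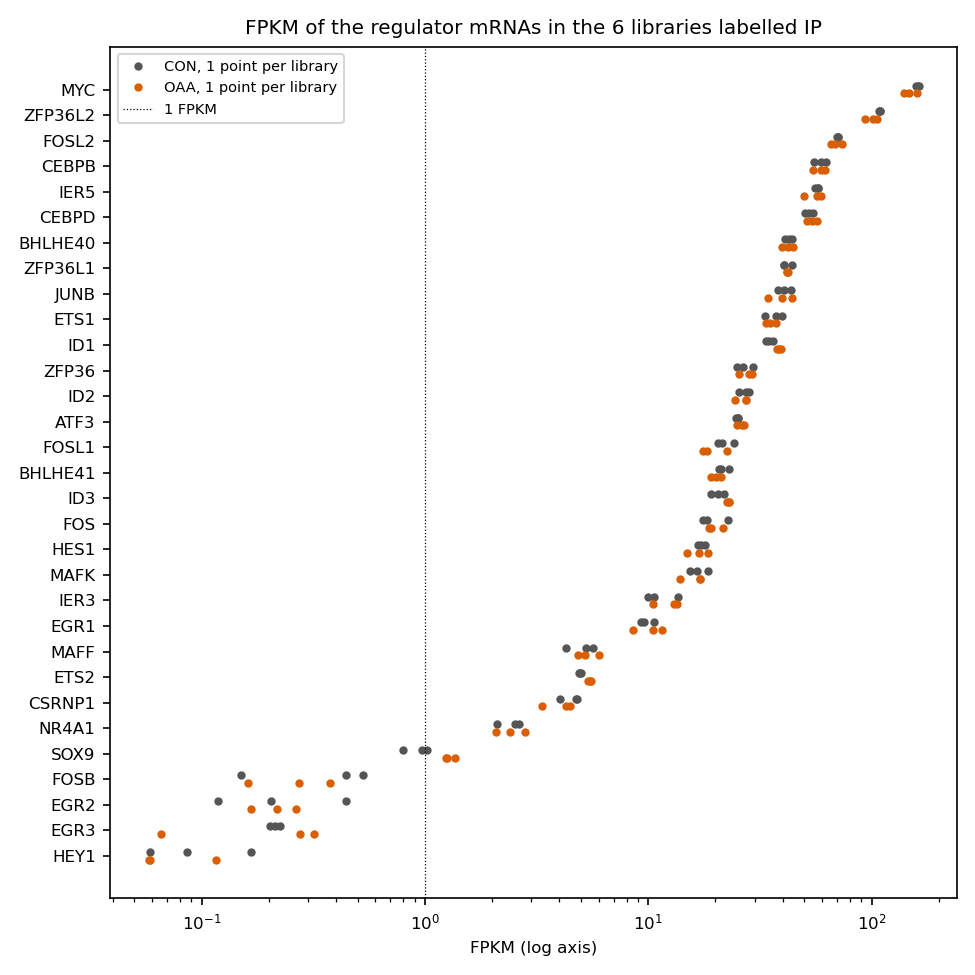
FPKM (log axis) of the 31 regulator mRNAs in the 3 CON and 3 OAA libraries labelled IP, 1 point per library, genes ordered by their CON mean, with a dotted line at 1 FPKM. MYC stands highest at 159 to 162 in CON, and FOSB, EGR2, EGR3 and HEY1 lie left of the line in all 6 libraries.

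The peak ratio was then compared with that of other transcripts, to see which regulator mRNAs carry more or less signal in the libraries labelled input than the typical gene. Counts of peaks lying under 1 gene were summed per gene, scaled by TMM so that the typical gene lies near 0, and tested with edgeR's quasi-likelihood test over all 9097 genes. A gene was called at a Benjamini-Hochberg adjusted p under 0.05. In CON, 76.7% of all genes were called, 38.9% higher and 37.8% lower. Of the 28 members tested, 23 were called higher and 4 lower, with a median of 0.72 against 0.03 over all genes. In OAA, where 76.7% of all genes were called, 38.7% higher and 38% lower, the members gave 22 and 4, with a median of 0.71. The same call was made in both treatments for 27 of 28 members, the exception being NR4A1. How often the calls matched over all genes was not computed. With library size as the only scaling, the median of all genes in CON went from 0.03 to -0.09, and this left 21 members called higher and 4 lower. Of all 9097 genes, 3236 were then called higher and 3740 lower.

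**Figure D2:**
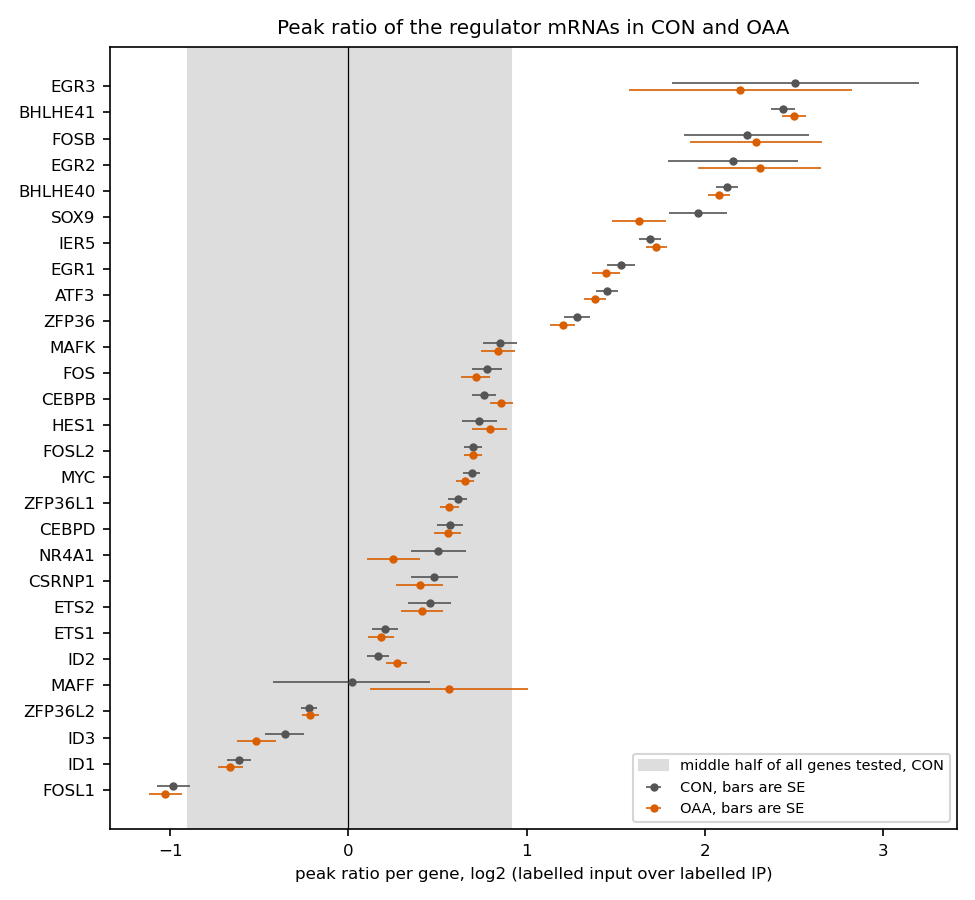
Peak ratio per gene (log2 of labelled input over labelled IP, horizontal axis) of the 28 members tested, in CON and OAA, with bars of 1 SE from the edgeR fit and the interquartile range of all genes in grey. EGR3, BHLHE41, FOSB, EGR2 and BHLHE40 lie above 2 in both treatments, and FOSL1 lies lowest, at -0.98 in CON.

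AP-1 is a dimer of FOS and JUN family proteins that drives proliferation and injury programmes. FOS, the founding subunit, had a single peak over its stop codon (chromosome 7, 98451565 to 98452314, plus strand). Its gene count, scaled to library size (CPM), was 154, 148 and 161 in CON for labelled input, against 90.9, 95.3 and 83.3 for labelled IP. All 3 labelled-input values lay above all 3 labelled-IP values, and the ratio was 0.78 ± 0.08 (log2, SE, adjusted p = 1.73e-08 by edgeR). FOSL2 was read from 4 peaks with 1469.9, 1478 and 1560.2 CPM against 935, 928 and 916, again without overlap, and a ratio of 0.70 ± 0.05. FOSL1, the subunit most tied to invasive growth, went the other way, with 82.0, 82.9 and 82.6 CPM against 158, 156 and 175. Its labelled-IP values lay above its labelled-input values throughout, and the ratio of -0.98 ± 0.09 was the lowest of all members (adjusted p = 1.29e-09 by edgeR).

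FOSB, low in FPKM, had 11.6, 9.91 and 13.0 CPM against 2.54, 1.02 and 3.98 in CON and a ratio of 2.24 ± 0.35. Its larger peak rested on 491 against 13 counts over the 3 CON libraries. JUNB, an AP-1 subunit of differentiation, could be read only from peaks shared with HOOK2, and its values may hold reads of that gene. At the stop codon of JUNB (chromosome 2, 66214173 to 66214922, minus strand) the ratio was 2.57 ± 0.08, and over its start codon 1.12 ± 0.08.

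ATF3, a stress-induced repressor of the same bZIP class, had 661, 655 and 698 CPM against 237, 253 and 248 in CON. The groups did not overlap, and the ratio was 1.45 ± 0.06 (adjusted p = 1.10e-15 by edgeR). The small MAF proteins lack an activation domain and pair with NRF2 or BACH factors. MAFK had 116, 104 and 117 CPM against 58.1, 66.6 and 61.5 and a ratio of 0.85 ± 0.10. MAFF, with 2.68, 2.60 and 3.09 CPM against 1.69, 4.32 and 2.14, was the only member tested that was called in neither treatment (0.02 ± 0.44 in CON and 0.56 ± 0.44 in OAA, SE), and its groups overlapped.

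The EGR factors are zinc finger proteins that bind GC-rich promoters soon after growth signals. EGR1 had 387, 405 and 405 CPM against 132, 138 and 144 in CON, without overlap, and a ratio of 1.53 ± 0.08 (adjusted p = 3.39e-14 by edgeR). EGR2 and EGR3 stood higher, at 2.16 ± 0.36 and 2.51 ± 0.69, but on few reads. The single EGR3 peak (chromosome 14, 6946311 to 6946585, minus strand) had 166 counts against 6 in CON, a scaled ratio of 6.79 (95% interval 3.05 to 18.8, counting error only). The 3' UTR peak of EGR2 had 63 against 1, a scaled ratio of 15.5 (2.67 to 620.0). NR4A1, at 29.4, 27.4 and 31.9 CPM against 24.0, 18.8 and 19.9, was called in CON (0.50 ± 0.15, adjusted p = 0.00531) but not in OAA (0.25 ± 0.15, adjusted p = 0.131, both by edgeR). Its change between the treatments was not called either (adjusted p = 1.00 by edgeR), and without CON replicate 3 the CON call was lost (0.41, adjusted p = 0.0656 by edgeR).

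Among the immediate early response proteins, IER5, a co-regulator of heat shock factor 1, had 1763, 1866 and 1896 CPM against 564, 579 and 568 in CON. The groups lay far apart, with a ratio of 1.69 ± 0.06 (adjusted p = 1.25e-16 by edgeR). IER3, a survival factor, was read from peaks shared with TUBB, and its stop codon peak (chromosome 7, 23265562 to 23266361, minus strand) had a ratio of 2.55 ± 0.09 on 29901 against 1236 counts. CSRNP1, a nuclear protein induced by AXIN, lay at 0.48 ± 0.13. IER2, listed in the table as a long noncoding RNA under its identifier, lay at 0.04 ± 0.08 (adjusted p = 0.689 by edgeR), with a peak at 0.88 followed by one at -1.16.

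MYC, the highest of these genes in FPKM, also had the most peak reads, 2969, 3031 and 3092 CPM against 1886, 1854 and 1889 in CON. All labelled-input values lay above the labelled-IP values, with a ratio of 0.69 ± 0.05 (adjusted p = 1.17e-11 by edgeR). The E-box repressors BHLHE40 and BHLHE41, which belong to the circadian clock's output, stood far higher. BHLHE40 had 1933, 2012 and 2018 CPM against 459, 431 and 479 and a ratio of 2.12 ± 0.06. BHLHE41 had 1283, 1312 and 1389 CPM against 229.7, 238 and 268 and a ratio of 2.44 ± 0.07 (adjusted p = 2.88e-18 by edgeR). These paralogs ranked within the top 4.88% and 3.25% of all genes, and their labelled-input and labelled-IP values did not come near each other.

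HES1, the repressor through which Notch signals in crypts, had a single stop codon peak and a ratio of 0.73 ± 0.10. HEY1, a related Notch target, was too low for the test, with 39 counts against 3 in CON, a scaled ratio of 3.19 (95% interval 1.01 to 16.1, counting error only). The ID proteins bind bHLH partners and keep them off DNA. ID1 had 122, 127 and 128 CPM against 191, 198 and 189 in CON and ID3 93.8, 70.0 and 81.7 against 101, 105 and 109.6. In both the labelled-IP values lay above the labelled-input values, with ratios of -0.61 ± 0.07 and -0.36 ± 0.11. ID2, with 264, 254 and 250.4 against 224, 237 and 224, lay slightly to the other side, at 0.17 ± 0.06 (adjusted p = 0.0167 by edgeR). The call of ID3 was lost without CON replicate 2 (-0.28, adjusted p = 0.0619). That of ID2 was lost without CON replicate 1 (0.13, adjusted p = 0.154), 2 (0.19, adjusted p = 0.0509) or 3 (0.17, adjusted p = 0.0682) by edgeR, and with scaling by library size (0.05, adjusted p = 0.449).

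SOX9 had 49.2, 51.3 and 52.6 CPM against 15.8, 9.40 and 14.4 in CON, without overlap, and a ratio of 1.96 ± 0.16 (adjusted p = 2.05e-10 by edgeR). The acute-phase bZIP factors CEBPB and CEBPD lay close to each other, at 0.76 ± 0.07 and 0.57 ± 0.07. CEBPB had 901, 804 and 974 CPM against 535, 490.4 and 557, and CEBPD, whose only peak spans its start and stop codon, 636, 536 and 659 against 413, 398 and 424. The winged-helix factors ETS1 and ETS2, targets of RAS signalling, lay nearer to the typical gene. ETS2 stood at 0.46 ± 0.12 and ETS1 at 0.21 ± 0.07 (adjusted p = 0.00146 and 0.0133 by edgeR). The call of ETS1 was lost without CON replicate 2 (0.18, adjusted p = 0.0927) or 3 (0.19, adjusted p = 0.0843) by edgeR, and with scaling by library size (0.09, adjusted p = 0.245). In OAA ETS1 (0.18 ± 0.07) lost its call without OAA replicate 1 (0.16, adjusted p = 0.118) or 2 (0.13, adjusted p = 0.212) and ETS2 (0.41 ± 0.12) without OAA replicate 2 (0.31, adjusted p = 0.0715), by edgeR.

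ZFP36 (tristetraprolin), ZFP36L1 and ZFP36L2 bind AU-rich elements and recruit deadenylases, and so limit the life of other mRNAs in the list. They differed among themselves. ZFP36 had 465, 473 and 489.9 CPM against 178, 197 and 212 in CON and a ratio of 1.28 ± 0.07. ZFP36L1 had 857, 825 and 873 against 545, 540.2 and 585 and a ratio of 0.61 ± 0.05. ZFP36L2, the highest of the family in FPKM, had 1526, 1479.8 and 1515 against 1716, 1765 and 1789.9, with every labelled-IP value above every labelled-input value, and a ratio of -0.22 ± 0.05 (adjusted p = 1.92e-04 by edgeR).

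The 31 genes had 73 peaks, of which 71 were tested one by one over all 24145 peaks. In CON, where 68.1% of all peaks were called, 33.9% higher and 34.2% lower by edgeR, 37 member peaks were higher and 18 lower, with a median of 0.79 against 0.03. In OAA, where 68.5% of all peaks were called, 34.1% higher and 34.4% lower, the member peaks gave 35 and 21. With scaling by library size alone the split of all peaks in CON went from 8181 higher and 8250 lower to 6516 and 10068, its median fell to -0.28, and the member peaks gave 35 and 24 with a median of 0.49. The place of a peak in the transcript is the one the authors listed. In 23 of 31 genes the peak with most labelled-input reads in CON was listed at a stop codon, counting peaks that span start and stop codon. The share over all genes was not computed. Stop codon peaks made up 25 of 67 peaks under a single member gene (37.3%), against 24.4% of all such peaks, and start codon peaks 29.9% against 21.5%.

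By their median, stop codon peaks of these genes had higher ratios than their start codon, coding sequence and 3' UTR peaks, but not than their few 5' UTR peaks. Of 24 tested in CON, 18 were called higher and 4 lower, with a median of 1.06, where all stop codon peaks had a median of 0.33 and 46.6% were called higher. Start codon peaks lay lower, with 4 called higher and 7 lower of 19 and a median of -0.33, against -0.16 over all start codon peaks, of which 25% were called higher and 34.4% lower, shares near those of the members. The 8 peaks in 3' UTRs had a median of 0.39, against -0.26 over all. In coding sequence, 9 peaks had a median of -0.12, against -0.04 over all, and 3 peaks in 5' UTRs had 1.13, against 0.48. Member peaks were also wider at stop codons, with a median of 625 bp against 325 bp, and narrower at start codons, with 260 bp against 494 bp. Among stop codon peaks of over 500 bp and up to 10000 bp, 14 of 14 member peaks were called higher with a median of 1.44, and 78.2% of 1490 such peaks of all genes with a median of 1.19. Up to 100 bp, stop codon peaks of all genes had a median of -1.15, and the single member peak, in ATF3, lay at -1.58. Across peaks, width and ratio had a Spearman rho of 0.27 over 20784 peaks and 0.42 over 65 member peaks; peaks of a gene share libraries and reads, and the part of width in the ratio was not tested.

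**Figure D3:**
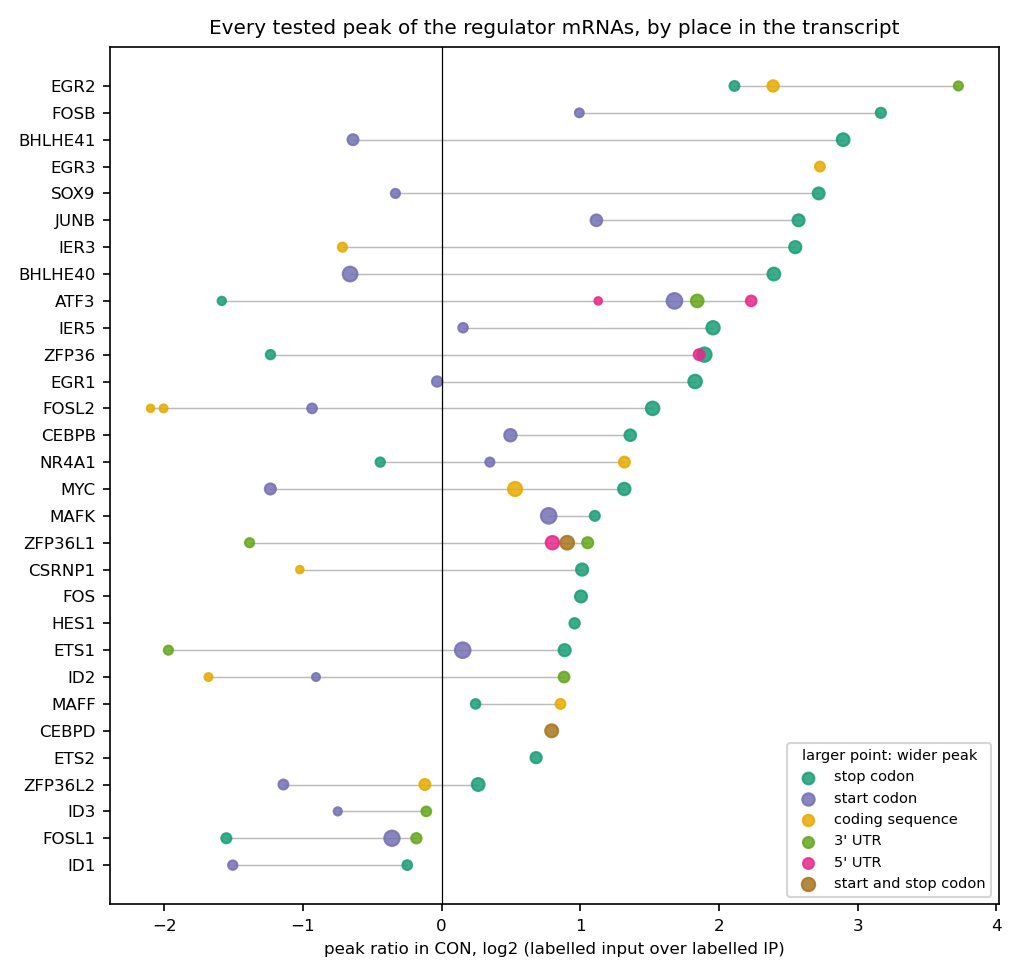
Peak ratio in CON (log2, horizontal axis) of the tested peaks of 30 genes, 1 row per gene ordered by its highest peak, coloured by the place listed in the table and larger where the peak is wider; the ZFP36 start codon peak, with 0 counts in the CON libraries labelled IP, is left out. Stop codon peaks lie at the right end of most rows, at 2.90 in BHLHE41 and 1.32 in MYC, and start codon peaks further left, at -0.64 and -1.23.

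The BHLHE genes show the contrast most plainly. The stop codon peak of BHLHE40 (chromosome 13, 61531478 to 61532477, plus strand) held 99.5% of the gene's labelled-input counts, 101205 against 4711 in CON, a ratio of 2.40 ± 0.06. Its start codon peak (chromosome 13, 61526297 to 61528235, plus strand) had 9.71, 7.75 and 7.24 CPM against 11.4, 13.4 and 14.3 and a ratio of -0.66 ± 0.21, a call lost without CON replicate 3 (-0.51, adjusted p = 0.0877 by edgeR). Most of this peak lies upstream of the listed gene start, 61528045. In BHLHE41 the stop codon peak (chromosome 5, 47690025 to 47691024, plus strand) stood at 2.90 ± 0.07 and the start codon peak at -0.64 ± 0.16. In both genes the peaks at either end thus lay on opposite sides of the typical peak.

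MYC had a graded order along its transcript. The stop codon peak (chromosome 4, 12455244 to 12456118, minus strand) had 1865, 2013 and 1996 CPM against 795, 794 and 768 in CON and a ratio of 1.32 ± 0.06. The wide coding sequence peak before it (chromosome 4, 12456144 to 12457764, minus strand) had 789, 749.5 and 785 against 539.9, 519 and 551 and a ratio of 0.53 ± 0.06. At the start codon (chromosome 4, 12459842 to 12460341, minus strand) the values were 71.9, 62.2 and 69.7 against 161, 147 and 173, with the labelled-IP libraries higher, and the ratio -1.23 ± 0.10 (adjusted p = 1.24e-12 by edgeR).

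FOSL2 had a stop codon peak of 1325 bp (chromosome 3, 110823841 to 110825165, minus strand) at 1.52 ± 0.06 and narrow peaks upstream in its coding sequence, of 75 and 50 bp, at -2.005 ± 0.119 and -2.10 ± 0.11. The narrowest had 24.0, 24.8 and 32.7 CPM against 120.5, 117 and 112 in CON, the reverse of the stop codon peak. Its start codon peak lay at -0.93 ± 0.14. FOSL1 differed from FOSL2 in that its stop codon peak (chromosome 2, 6435355 to 6435654, plus strand), of 300 bp, was low, with 23.0, 25.1 and 20.1 CPM against 65.4, 63.0 and 71.3 and a ratio of -1.55 ± 0.12, while its 3' UTR peak lay at -0.18 ± 0.12 (adjusted p = 0.175 by edgeR).

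In ATF3 the reads lay beyond the stop codon: a 3' UTR peak (chromosome 9, 130772803 to 130773752, minus strand) held 93.0% of the labelled-input counts, with 559.9, 568 and 603 CPM against 161, 163 and 158 and a ratio of 1.84 ± 0.07. Its stop codon peak of 100 bp had 6.44, 8.35 and 7.58 against 19.7, 24.0 and 23.2, a ratio of -1.58 ± 0.19. In ID2 the ratio was 0.88 ± 0.08 in the 3' UTR (chromosome 3, 127501084 to 127501508, minus strand) and -1.68 ± 0.13 in a coding sequence peak of 75 bp. ETS1 had the reverse of ATF3, with 0.89 ± 0.09 at the stop codon (chromosome 9, 55380189 to 55380963, minus strand) and -1.97 ± 0.15 in a 3' UTR peak of 175 bp. ID1 lay low at both ends, at -0.25 ± 0.08 over the stop codon (chromosome 17, 35317416 to 35317665, plus strand) and -1.51 ± 0.18 over the start codon. The stop codon call of ID1 was lost without CON replicate 1 (-0.22, adjusted p = 0.0555) or 2 (-0.24, adjusted p = 0.0557) by edgeR. With all libraries kept, that call was also lost with DESeq2 scaling in edgeR (-0.16, adjusted p = 0.0841) and by the DESeq2 Wald test (-0.16, adjusted p = 0.0660).

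Among the decay factors, ZFP36 had a wide stop codon peak of 1738 bp (chromosome 6, 48063739 to 48065476, plus strand) at 1.89 ± 0.08 and, just downstream, a 200 bp peak also listed at the stop codon at -1.23 ± 0.14. Its start codon peak had 49 labelled-input counts in CON against 0 labelled-IP counts, which is at least 4.01-fold higher against a floor of 3 counts over the group, and the lower 95% limit of the scaled ratio was 3.14 (counting error only). In OAA the same peak had 40 against 9, a scaled ratio of 1.19 (95% interval 0.569 to 2.79, counting error only). ZFP36L1 carried most reads in a peak spanning start and stop codon (chromosome 7, 92491536 to 92492935, minus strand) at 0.91 ± 0.06, with 3' UTR peaks at 1.05 ± 0.09 and, 175 bp wide, at -1.38 ± 0.13. In ZFP36L2 the stop codon peak (chromosome 3, 97202341 to 97203365, plus strand) lay at 0.26 ± 0.06, the coding sequence peak at -0.12 ± 0.06 and the start codon peak at -1.14 ± 0.09. The stop codon value of ZFP36L2 turned to -0.04 when libraries were scaled by size alone, and was then not called (adjusted p = 0.564 by edgeR).

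Whether peaks of one transcript differ from each other was tested within genes, with edgeR's diffSpliceDGE, a test added after the data had been seen. It sets the ratio of each peak against that of its whole gene, so the level of the transcript drops out. In CON, 19.9% of 17198 peaks of all genes were called higher than their gene and 31.1% lower. Of 59 member peaks in 22 genes, 12 were called higher and 23 lower, shares near those of all genes for the higher side. By place the members differed more: 12 of 19 start codon peaks were called lower than their gene and 1 higher, where all 3174 start codon peaks gave 26.8% lower and 25.7% higher. Of 20 stop codon peaks, 8 were called higher and 4 lower, against 22.3% and 21.2% of 4050. Among 8 coding sequence peaks 1 was called higher and 5 lower, and the share over all coding sequence peaks was not computed. Start codon peaks of members were also narrower than those of all genes, and the part of width in these differences was not tested.

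The difference between the start codon peak and its gene was -3.30 (log2) in BHLHE41, -3.01 in BHLHE40, -2.51 in SOX9, -2.15 in MYC and -1.86 in FOSL2. EGR1 (-1.79), IER5 (-1.76), ZFP36L2 (-1.15), ID1 (-1.12), ID2 (-1.30), FOSB (-1.46) and CEBPB (-0.49) also had start codon peaks called lower than the gene. The start codon peak of ZFP36, with its 49 counts, was the single one called higher. In OAA, 13 of 19 start codon peaks of members were called lower and 0 higher, where all 3174 start codon peaks gave 27.8% lower and 26.5% higher. Over peaks of every place, 20.3% were called higher and 31.2% lower in OAA. In 21 of 25 genes with several tested peaks, shared peaks included, the peak with most labelled-input reads in CON also had the highest ratio in CON. Those reads are the numerator of the ratio, so this match is partly built in. The share over all genes was not computed.

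The peak ratio was lower where FPKM was higher over all genes, so the members were read beside genes of like FPKM, although both measures use the libraries labelled IP. Over 8793 genes the ratio in CON and the FPKM had a Spearman rho of -0.53, and over 28 members -0.29. Above 50 FPKM, genes had a median ratio of -1.13 and 12.2% were called higher. The 6 members there, MYC, FOSL2, CEBPB, IER5, CEBPD and ZFP36L2, had a median of 0.70, and 5 of them were called higher. From over 20 to 50 FPKM the medians were -0.62 for all genes and 0.41 for 10 members, which ran from FOSL1 (-0.98) to BHLHE41 (2.44). From over 5 to 20 FPKM they were -0.03 and 0.78 (5 members). Between 1 and 5 FPKM the members NR4A1, CSRNP1 and ETS2 (0.48) lay slightly below the other genes (0.54). Up to 1 FPKM the median of FOSB, EGR2, EGR3 and SOX9 was 2.20, in a bin where all genes had 1.45.

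**Figure D4:**
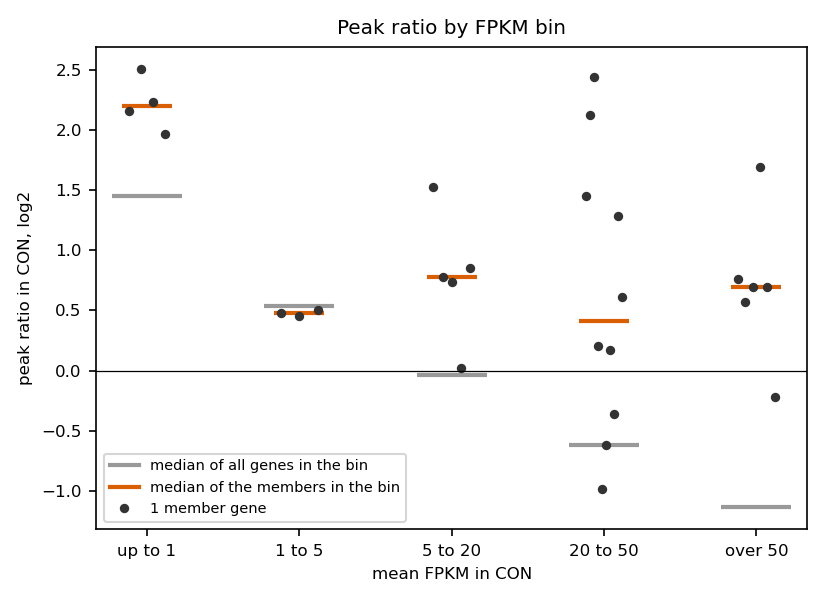
Peak ratio per gene in CON (log2, vertical axis) in 5 bins of mean CON FPKM, with the 28 members as points, their median in orange and the median of all genes in the bin in grey. The grey median drops from 1.45 to -1.13 from left to right, and the orange median lies above it in each bin but that of 1 to 5 FPKM.

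The regulator genes are short, with a median span of 5985 bp from start to end against 28216 bp over all genes tested. Gene span and ratio had a Spearman rho of 0.07 over the 28 members and 0.03 over all genes.

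What 24 h of OAA did to these transcripts was examined in FPKM with limma on log2(FPKM + 1), a scale that understates differences of low genes. Of all 10763 genes tested 0% were called, and of the 27 members tested 0 were, with 4 at an unadjusted p under 0.05 (3.31% of all genes). In bulk RNA, fewer cells with a transcript and less of it per cell cannot be told apart. The 3 values of each group did not overlap in 5 members, 4 higher in OAA (3.28% of all genes were) and 1 lower (5.27%). ID1 had 34.6, 36.0 and 33.8 FPKM in CON and 37.8, 39.3 and 38.3 in OAA, a difference of 0.14 ± 0.05 (log2, SE, 95% interval 0.02 to 0.26). ID3 had 19.1, 20.6 and 21.8 and 22.6, 23.1 and 23.1, a difference of 0.16 ± 0.06 (0.02 to 0.30). ID1 and ID3 thus lay higher in every OAA library, while ID2 overlapped between the groups, with a difference of -0.03 ± 0.07. SOX9 had 0.799, 1.02 and 0.971 and 1.24, 1.36 and 1.25, a difference of 0.25 ± 0.10 (0.02 to 0.47), and ETS2 5.02, 4.96 and 4.89 and 5.52, 5.47 and 5.35, a difference of 0.11 ± 0.07. ZFP36L2 lay lower, at 108, 109 and 109 and 106, 101 and 93.1, a difference of -0.12 ± 0.05 (-0.24 to -0.00). Each of these had an adjusted p of 1.00 by limma.

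MYC had 159, 161 and 162 FPKM in CON and 147, 159.5 and 139 in OAA, with OAA replicate 2 inside the CON range, and a difference of -0.11 ± 0.05 (unadjusted p = 0.0667 by limma). Among the other members FOSL1 lay at -0.17 ± 0.10, CSRNP1 at -0.14 ± 0.11, BHLHE41 at -0.10 ± 0.07 and ATF3 at 0.06 ± 0.06, each with overlapping groups. FOS lay at 0.02 ± 0.10, EGR1 at 0.04 ± 0.10, BHLHE40 at -0.01 ± 0.06 and NR4A1 at 0.00 ± 0.11 (log2, SE).

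In peak counts of the libraries labelled input, again 0% of 9298 genes and 0 of 29 members were called by edgeR, with 5 members at an unadjusted p under 0.05 (4.87% of all genes). MYC had 2969, 3031 and 3092 CPM in CON and 2734, 2867 and 2589 in OAA, every OAA value below every CON value, a difference of -0.15 ± 0.04 (log2, SE, unadjusted p = 0.00285 by edgeR). FOSL1 had 82.0, 82.9 and 82.6 and 70.7, 71.7 and 67.3, also without overlap, a difference of -0.24 ± 0.08. The share of all genes without overlap in these peak counts was not computed. ID1 lay on the other side, with 122, 127 and 128 in CON and 139, 133 and 147 in OAA, a difference of 0.15 ± 0.07, while ID3 differed by -0.04 ± 0.10. The remaining members with such a p were BHLHE41 at -0.10 ± 0.05 and FOSB at -0.40 ± 0.18. The smallest adjusted p of any member was 0.929 by edgeR.

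In the libraries labelled IP 0% of 8138 genes and 0 of 25 members were called, with 2 members at an unadjusted p under 0.05 (3.65% of all genes). These were ID1, with 191, 198 and 189 CPM in CON and 217, 222 and 222 in OAA (difference 0.20 ± 0.07), and MYC, with 1886, 1854 and 1889 and 1700.3, 1825 and 1682 (difference -0.11 ± 0.05). Neither gene's groups overlapped, and the share of all genes without overlap was not computed here either. The FPKM values carry the codes of these same libraries, so the like signs of ID1 and MYC there are no second observation. Without OAA replicate 3, edgeR called 44 genes in this comparison, 30 higher and 14 lower, and 0 members.

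**Figure D5:**
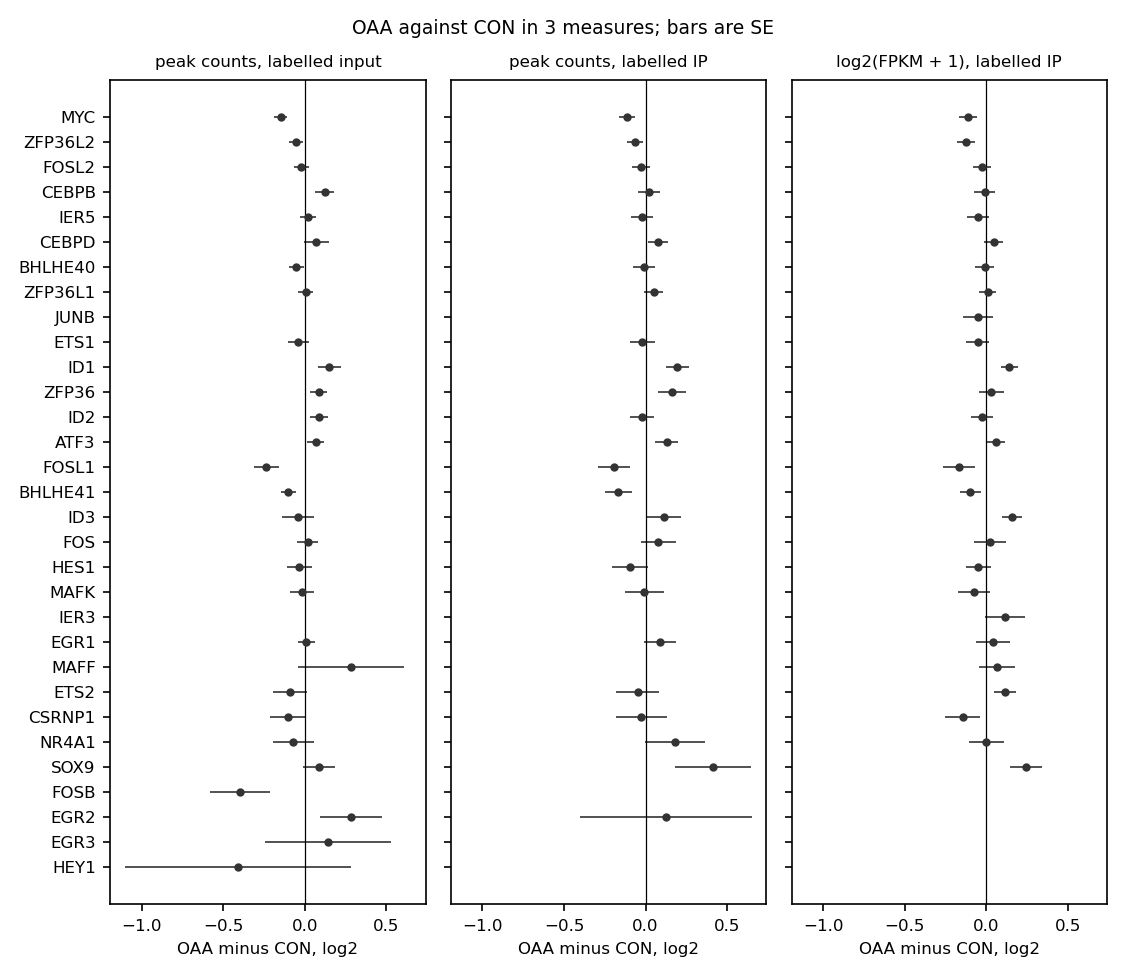
Difference of OAA and CON (log2, horizontal axes) for each regulator mRNA in the peak counts of libraries labelled input, in those labelled IP and in log2(FPKM + 1), with bars of 1 SE; genes too low for a test have no point. ID1 lies right of 0 in the 3 panels, at 0.15, 0.20 and 0.14, and MYC left of it, at -0.15, -0.11 and -0.11, with none called.

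The change of the peak ratio between the treatments was called for 0% of all genes and 0 of 28 members by edgeR, with 0 members at an unadjusted p under 0.05 (3.73% of all genes). Ratios of members in CON and OAA had a Pearson r of 0.99 over the 28 genes, which share libraries and peaks. SOX9 moved by -0.33 ± 0.23, from 1.96 ± 0.16 to 1.63 ± 0.15, and MYC by -0.04 ± 0.07. By peak, 0% of all peaks and 0 of 71 member peaks were called, and 5 member peaks had an unadjusted p under 0.05 (4.46% of all peaks). These were both narrow coding sequence peaks of FOSL2, which went from -2.10 to -1.61 and from -2.005 to -1.58, and the stop codon peak of ATF3, from -1.58 to -2.19. The downstream stop codon peak of ZFP36 went from -1.23 to -1.69, and the ZFP36 start codon peak has the counts given above. In the authors' deposited table a p under 0.05 was listed for 2 of the 73 member peaks, for the difference between treatments (2.69% of all peaks), the lowest 0.0123 for the ZFP36 start codon peak, and the lowest adjusted p of any peak was 1.00 after rounding.

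Genes that work with these regulators were read from 6 further lists, in CON and per gene by edgeR, where 38.9% of all genes were called higher and 37.8% lower, with a median of 0.03. Other immediate early genes and feedback inhibitors of MAP kinase signalling gave 23 of 34 called higher, 6 lower and a median of 0.82. IER5L, a relative of IER5, lay at 3.44 and the RAS inhibitor SPRED2 at 1.82, against -1.14 for NFKBIA, the inhibitor of NF-kB, and -0.88 for PHLDA1. Relatives of the C/EBP, SOX, SNAIL and ETS factors gave 10 higher and 2 lower of 14 (median 0.56), from SOX13 at 2.05 and ZEB1 at 1.84 to GABPA at -0.73 and ETV4 at -1.66. AP-1, CREB and MAF partners gave 7 higher and 5 lower of 15 (median 0.21), near the shares of all genes, with BACH2 at 2.36 and CREM at 1.43, against ATF2 at -1.37 and ATF4 at -1.93.

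Upstream kinases and serum response factors gave 8 higher and 6 lower of 20 (median 0.05), also near the shares of all genes, with the serum response cofactor ELK4 at 1.36 against NRAS at -1.60. Partners of MYC, bHLH and Notch factors gave 8 and 5 of 23 (median -0.02), with HES2 at 2.68 and the Notch ligand JAG1 at 2.23 against TCF12 at -1.53 and the clock factor BMAL1 at -1.96. Factors that bind AU-rich elements or remove poly(A) tails gave 2 higher and 13 lower of 18 (median -0.83). In that list HNRNPD lay at 0.78 and CNOT8 at 0.69, against -1.79 for the deadenylase CNOT7 and -1.91 for ELAVL1, a stabilising AU-rich element binder. No gene of these lists was called between OAA and CON in FPKM by limma, or in either kind of library or the peak ratio by edgeR.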

How the data were processed

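Per the labels' protocols, total RNA was taken with Trizol, fragmented, divided into an input and an antibody part, and sequenced from random primers; the submitters' processing notes name Bowtie2 and HISAT2, while the sources used here do not give versions, roles or genome build. Per the file headers, the authors' deposited peak table holds read counts of 12 libraries in merged peaks, log2 ratios, p-values, their −log10 and a peak score (the last 2 not used), and a deposited gene table holds FPKM of 6 libraries. All library columns were matched (0 unmatched). Symbols are the deposited ones. Starts are printed 1-based.

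Each of 25055 peaks was used once, and counts of the 21450 peaks under 1 gene were summed per gene. Peak ratios were fitted over 12 libraries in 4 groups, and OAA against CON over the 6 libraries of a label, with edgeR 4.0.16 (TMM, filterByExpr, quasi-likelihood test) in R 4.3.3. FPKM were tested by limma 3.58.1 with a trended prior after adding 1 and taking log2, keeping genes that reached 1 FPKM in 3 libraries. P-values were adjusted by Benjamini-Hochberg over all features. CPM are scaled by TMM. Fits were tested on simulated data. Alternatives used DESeq2 1.42.0, limma-voom, other scalings and filters, a replicate block, and libraries left out.

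All members are named, with at most 5 peaks per gene, and from each partner list the 2 highest and 2 lowest ratios in CON among genes whose higher group reached 5 CPM, except for some genes not reported here. Members and lists were chosen with earlier results of these data known. The numbers of replicates were not shown to pair libraries. Deviations of the labelled-input and labelled-IP libraries of a number had correlations from -0.04 to 0.24 over 6936 genes. Those of different numbers within a treatment ran from -0.18 to 0.08, a range that overlaps the first.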

Additional observations from a re-analysis of the deposited data

How the results depend on the processing

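No member was called between OAA and CON, in any of the FPKM, peak count or ratio comparisons, under any alternative run. Over all features, the change of the ratio per gene gave 1 call without CON replicate 3 and 1 without OAA replicate 3 (range 0 to 1), and per peak 1 with DESeq2, 1 with the replicate block and 0 to 1 with a replicate left out. The labelled-input comparison gave 1 with DESeq2 (0 to 1 with a library left out), the labelled-IP comparison 0 to 44 with a library left out, and FPKM 1 without the minimum on FPKM. The number of members called for the ratio per gene was 24 to 27 in CON and 24 to 26 in OAA with a replicate left out, and of member peaks 52 to 56 and 51 to 57. Over all features, these fits called 6415 to 7099 genes in CON and 6477 to 7002 in OAA, and 14854 to 16748 and 14963 to 16662 peaks. Within genes, 30 to 36 member peaks were called in CON and 31 to 36 in OAA, against 7275 to 9113 and 7395 to 9053 peaks of all genes. Those within-gene ranges cover the main fit, other scalings, the replicate block and replicates left out. With the replicate block, 23 members were called higher and 4 lower in CON, as without it, and 37 and 17 member peaks, so the block changed the call of few members. Over all features the block gave 3549 genes higher and 3457 lower in CON, and 8071 and 8244 peaks. The stop codon peak of ZFP36L2 changed sign with scaling by library size alone, because that scaling shifts all ratios down. It was then not called, at -0.0393 in CON (adjusted p = 0.564) and -0.0304 in OAA (adjusted p = 0.658, both by edgeR). Depth limits the ratios of EGR2, EGR3, FOSB, MAFF and HEY1, and titles and codes do not settle which libraries hold the antibody part.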
